A study of Mus musculus with 6 samples.

Results

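The genes described here encode receptors for extracellular nucleotides and adenosine and the ectoenzyme that links both signals in macrophages. The 9 members, P2rx4, P2rx7, P2ry2, P2ry6, P2ry12, P2ry14, Adora2a, Adora2b and Entpd1, were taken by symbol from a table of 22192 genes. The RNA-seq libraries, made from oligo(dT)-selected messenger RNA, come from RAW 264.7, a macrophage-like mouse line labelled with the strain BALB/c. For 3 libraries the medium held 200 µg/mL of ASPS-A1, a purified acidic fraction of leaf polysaccharide from Acanthopanax senticosus, and cells were collected after 24 h. The other 3 libraries carry the treatment label control, with no further agent named. Nothing in the labels says that the 3 libraries of a group came from separate cultures, so p-values measure only the spread between these libraries, which may be technical.

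Cells release ATP and other nucleotides when they are stressed, damaged or stimulated. P2X receptors are cation channels opened by ATP, and P2Y receptors are G protein-coupled receptors for adenine or uracil nucleotides. Ectoenzymes degrade extracellular ATP stepwise to adenosine, which acts on its own G protein-coupled receptors, and in macrophages ATP is best known as a danger signal while adenosine restrains inflammatory output.

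Library totals ran from 19989318 to 26137127 counts, and the control libraries were all deeper than the ASPS-A1 libraries (exact permutation p = 0.1, two-sided, n = 3 per group, the smallest this design can give). Scaling factors (TMM, which correct totals for differences in composition) also separated the groups, at 0.921 to 0.945 with ASPS-A1 and 1.06 to 1.08 in control. Scaling by totals alone shifted the fold changes of all genes by a median of −0.20 on the log2 scale, and the members are therefore given under both scalings where their calls differ. All 9 macrophage markers examined were abundant, with summed levels of 3702 to 3872 CPM (counts scaled to library size, here with TMM) with ASPS-A1 and 2595 to 2612 in control. Of these markers 7 were called higher and 0 lower, beside 32.4% higher and 33.0% lower over all tested genes. The part of these markers in the results below was not tested. Counts in the T cell, B cell and endothelial lists came mostly from Lck, Cd79b and Pecam1, with sums of 5.00 to 7.04, 31.8 to 38.3 and 12.6 to 13.9 CPM with ASPS-A1 and 2.58 to 2.94, 30.3 to 32.6 and 6.85 to 8.15 in control. The platelet list summed to 1.96 to 3.18 CPM against 2.46 to 3.44. Fibroblast, epithelial and neutrophil lists summed to at most 0.815, 0.116 and 0.106 CPM. Cd3e, Cd3g, Epcam, Krt8, Mpo, Elane, Ly6g, S100a9 and Pf4 had 0 counts in every library.

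The comparison asks how transcripts of this signalling system respond to the polysaccharide. Entpd1, which encodes the ectonucleotidase CD39, fell most among the members, to 12.8 ± 1.10 CPM from 21.5 ± 1.37 (SD, n = 3). P2rx7, the ATP-gated channel upstream of inflammasome activation, and Adora2b, the lower-affinity Gs-coupled adenosine receptor, also fell. P2ry6, the UDP receptor, rose to 14.4 ± 1.89 from 11.4 ± 0.929 CPM. P2rx4, P2ry2, P2ry12 and Adora2a were not past an adjusted p of 0.05, and P2ry14 had no counts.

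Of the 9 members, 8 had enough counts to be tested, of which 1 was higher and 3 were lower with ASPS-A1 (edgeR's quasi-likelihood test, two-sided, Benjamini-Hochberg values over 11686 genes). Over all tested genes, 32.4% were called higher and 33.0% lower, so 4 called among 8 is no larger a share than the background of 65.3%. The median log2 fold change of the 8 was −0.41, against −0.021 over all tested genes. With scaling by library totals alone, 0 members were higher and 4 lower, and the split over all genes moved from 3783 higher and 3852 lower to 2529 higher and 5453 lower. In CPM the groups were fully apart for 2 members that were higher (P2rx4 and P2ry6) and 3 that were lower (P2rx7, P2ry2 and Entpd1). The same held for 33.7% and 34.8% of all tested genes in those directions, or 68.5% in either. These are bulk measurements, in which fewer cells expressing a gene and less RNA per cell cannot be told apart.

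**Figure D1:**
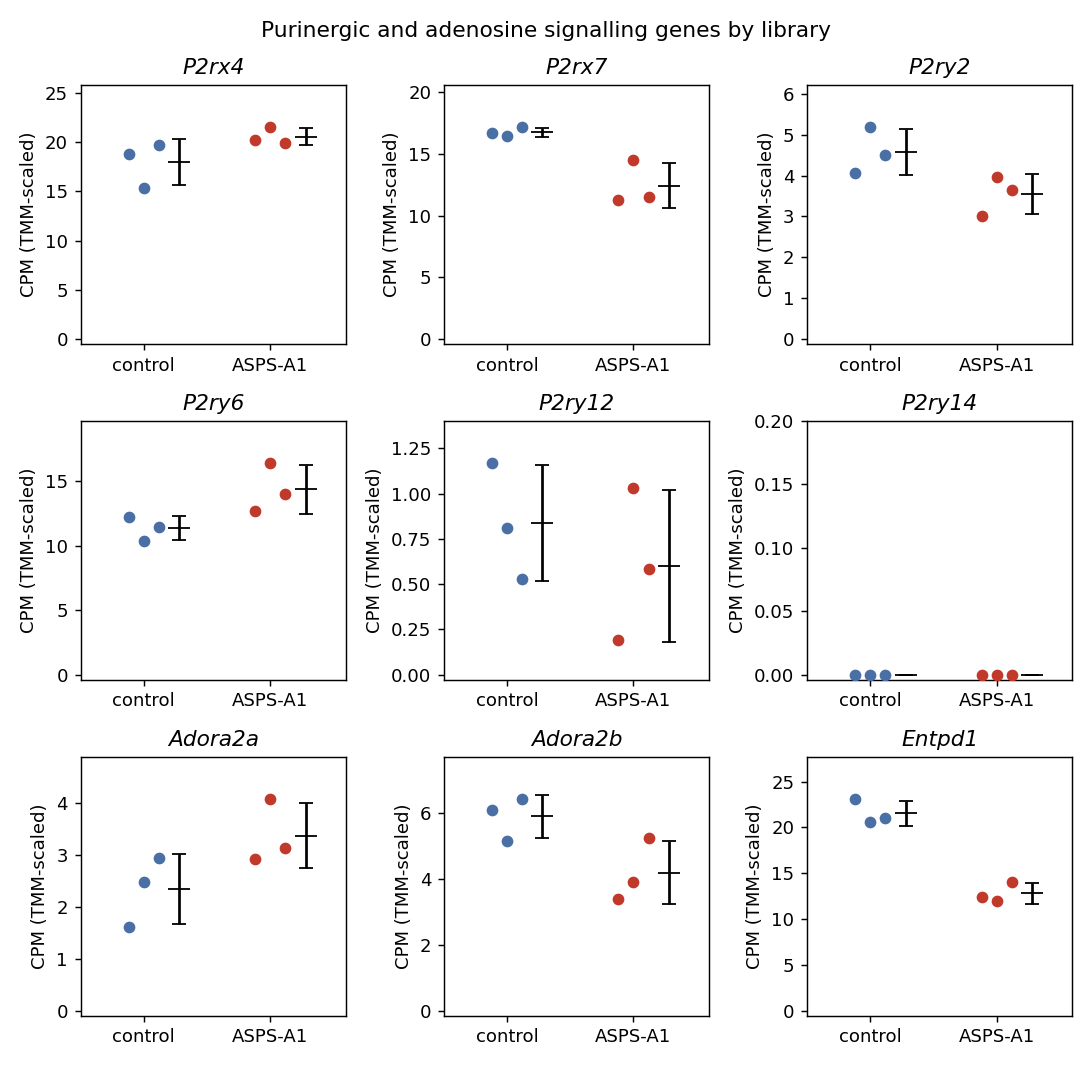
Level of each member in each library, in TMM-scaled CPM from 0, for 3 control (blue) and 3 ASPS-A1 (red) libraries; black marks give the mean and SD. The groups lie apart most widely for Entpd1, while P2ry12, Adora2a and Adora2b overlap and P2ry14 is at 0 throughout.

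P2rx4 and P2rx7 encode subunits of ATP-gated channels and are neighbours on chromosome 5, with 0 protein-coding genes between them in the RefSeq annotation. P2rx7 opens only at high ATP and triggers potassium efflux, and P2rx4 responds to lower ATP and also resides in lysosomes. P2rx7 measured 11.3, 14.5 and 11.5 CPM in the 3 ASPS-A1 libraries and 16.7, 16.5 and 17.2 CPM in the controls. Every ASPS-A1 library was below every control library, and ASPS-A1 replicate 2 was the closest to the controls. The gene fell 1.35-fold (log2 fold change −0.43 ± 0.11 SE, edgeR adjusted p = 0.000588), which placed it below 77.0% of the tested genes by fold change. Offsets that remove trends with transcript length and GC content reduced this to −0.22 (adjusted p = 0.0759), where the call was lost. A microRNA gene, Mir8115, covers 1.99% of its exon sequence.

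P2rx4 measured 20.2, 21.5 and 20.0 CPM with ASPS-A1 and 18.8, 15.3 and 19.7 in control. The groups were separated by a narrow gap, and control replicate 2 was the low value. Its log2 fold change was 0.19 ± 0.10 SE (95% interval 0.0011 to 0.39, edgeR unadjusted p = 0.0548, adjusted p = 0.0799). The interval, ± 1.96 SE, excludes no change although the unadjusted p is above 0.05, because its normal multiplier makes it narrower than the test implies. Leaving out control replicate 3 gave 0.27 (adjusted p = 0.0373), and leaving out control replicate 2 gave 0.091 (adjusted p = 0.464). The value was 0.28 with the length and GC offsets (adjusted p = 0.0104), and under library totals alone −0.0015 (adjusted p = 0.991).

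Because a ratio of 2 genes within a library does not depend on scaling, the pair was also compared in that way. There were 0.557, 0.674 and 0.576 P2rx7 counts for each P2rx4 count with ASPS-A1, and 0.884, 1.08 and 0.869 in control. The ratio was lower in 3 of 3 ASPS-A1 libraries than in any control (exact permutation p = 0.1, two-sided, n = 3 per group, the smallest possible). It was 1 of 4 ratios computed, chosen after the values were seen, and each had an exact permutation p = 0.1, also after adjustment over the 4. Of all 68275455 pairs of tested genes, 64.3% have ratios that do not overlap between the groups (with 0.5 added to each count), so this separation is common in these libraries. Separation also had to occur here, because in CPM P2rx7 was lower and P2rx4 higher in every ASPS-A1 library than in any control. The ratio therefore adds no separate evidence.

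The sequences upstream of both start sites are shown because P2rx7 fell while its neighbour did not pass the test. They are the 250 bases before the RefSeq start (GRCm38.p6), plus strand, at chr5:122643677-122643926 for the first of 2 P2rx7 starts and at chr5:122707294-122707543 for P2rx4. Capitals mark matches to the AP-1 motif TGANTCA in P2rx7 and to the cAMP response core site TGACG in P2rx4, where both matches lie on the opposite strand and read CGTCA.
P2rx7: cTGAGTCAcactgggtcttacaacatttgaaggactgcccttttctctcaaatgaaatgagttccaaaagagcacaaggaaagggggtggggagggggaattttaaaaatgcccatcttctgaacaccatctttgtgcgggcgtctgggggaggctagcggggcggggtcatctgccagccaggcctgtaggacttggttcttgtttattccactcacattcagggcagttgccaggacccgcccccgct
P2rx4: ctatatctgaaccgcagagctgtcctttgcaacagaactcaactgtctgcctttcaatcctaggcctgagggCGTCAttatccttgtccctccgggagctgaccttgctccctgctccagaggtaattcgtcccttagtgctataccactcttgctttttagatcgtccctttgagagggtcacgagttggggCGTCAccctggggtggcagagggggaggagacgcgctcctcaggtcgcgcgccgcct
The AP-1 match begins 249 bases before the first P2rx7 start, and the core sites begin 178 and 57 bases before the P2rx4 start. The sequence before the second P2rx7 start, which is not shown, held no match to either motif. In 32851 RefSeq promoters of the same length, 6.75% hold the AP-1 motif and 17.8% the core site on either strand. A match is a description of the letters only, and binding was not measured.

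The P2Y receptors for uracil nucleotides, P2ry2 and P2ry6, are neighbours on chromosome 7 with 0 protein-coding genes between them. P2ry6, which responds to UDP and is known for promoting phagocytosis in microglia and chemokine release in monocytes, measured 12.7, 16.4 and 13.98 CPM with ASPS-A1 and 12.2, 10.4 and 11.5 in control. All ASPS-A1 values were above all controls, though ASPS-A1 replicate 1 and control replicate 1 were close. P2ry6 rose 1.26-fold (log2 fold change 0.34 ± 0.12 SE, edgeR adjusted p = 0.0108). The call depended on single libraries and on scaling. The log2 fold change was 0.225 (adjusted p = 0.126) without ASPS-A1 replicate 2 and 0.27 (adjusted p = 0.0636) without control replicate 2. It was 0.14 (adjusted p = 0.296) with library totals alone and 0.20 (adjusted p = 0.122) with the length and GC offsets.

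P2ry2, a receptor for ATP and UTP that acts in the attraction of phagocytes to dying cells, measured 3.01, 3.97 and 3.65 CPM with ASPS-A1 and 4.07, 5.19 and 4.50 in control. The groups did not overlap, but ASPS-A1 replicate 2 nearly reached control replicate 1. The log2 fold change was −0.38 ± 0.20 SE (95% interval −0.77 to 0.011, edgeR adjusted p = 0.0911), and under library totals alone it was −0.57 (adjusted p = 0.0105). The number of P2ry2 counts for each P2ry6 count was 0.237, 0.242 and 0.261 with ASPS-A1 against 0.333, 0.50 and 0.392 in control (exact permutation p = 0.1). This ratio was again lower in 3 of 3 ASPS-A1 libraries than in any control library. That follows from the CPM values, which were apart in opposite directions for P2ry2 and P2ry6, and adds no separate evidence.

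The other P2Y members were scarce. P2ry12, the ADP receptor of platelets and microglia, had 4, 19 and 11 counts with ASPS-A1 and 29, 21 and 15 in control. The groups overlapped, and the log2 fold change of −0.49 ± 0.48 SE had a 95% interval from −1.43 to 0.45 (edgeR adjusted p = 0.376). Leaving out ASPS-A1 replicate 1 moved this value to −0.042, leaving out control replicate 1 to −0.18, leaving out control replicate 3 to −0.74, and leaving out ASPS-A1 replicate 2 to −1.13, with no call in any of these fits. P2ry14, the receptor for UDP-glucose, had 0 counts in all 6 libraries, which allows a level of up to 0.106 to 0.163 CPM per library (3 counts, counting error only). P2ry12 and P2ry14 lie on chromosome 3 with 2 protein-coding genes between them.

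Of the Gs-coupled adenosine receptors, Adora2b fell and Adora2a did not pass the test. Adora2b is engaged at higher adenosine concentrations. It measured 3.39, 3.91 and 5.24 CPM with ASPS-A1 and 6.09, 5.15 and 6.41 in control. The groups overlapped, since ASPS-A1 replicate 3 was just above control replicate 2. Adora2b fell 1.41-fold (log2 fold change −0.50 ± 0.18 SE, edgeR adjusted p = 0.0155). That call was lost when ASPS-A1 replicate 1 (−0.36, adjusted p = 0.115) or control replicate 3 (−0.43, adjusted p = 0.0709) was left out, and with DESeq2 (−0.48, adjusted p = 0.0528). With the length and GC offsets the value was −0.71 (adjusted p = 0.000596).

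Adora2a, the higher-affinity receptor that dampens macrophage cytokine release, measured 2.91, 4.07 and 3.12 CPM with ASPS-A1 and 1.61, 2.48 and 2.94 in control. Control replicate 3 lay just above ASPS-A1 replicate 1, and control replicate 1 was the lowest library. The log2 fold change of 0.51 ± 0.25 SE did not pass (95% interval 0.024 to 1.00, edgeR adjusted p = 0.0676). Leaving out control replicate 3 gave 0.71 (adjusted p = 0.0334), leaving out control replicate 1 gave 0.30 (adjusted p = 0.316), and leaving out ASPS-A1 replicate 2 gave 0.35 (adjusted p = 0.291). With library totals alone it was 0.32 (adjusted p = 0.266). There were 1.16, 0.960 and 1.68 Adora2b counts for each Adora2a count with ASPS-A1 and 3.78, 2.08 and 2.18 in control. The groups did not overlap (exact permutation p = 0.1), and control replicate 1 had the highest ratio. Among all pairs of tested genes 64.3% have ratios that do not overlap between the groups, so this separation is common in these libraries.

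Entpd1 hydrolyses extracellular ATP and ADP to AMP and so ends P2 receptor signalling while feeding adenosine production. It measured 12.4, 11.95 and 14.03 CPM with ASPS-A1 and 23.1, 20.6 and 21.0 in control. The gap between the groups was wider than the spread within either. Entpd1 fell 1.69-fold (log2 fold change −0.75 ± 0.10 SE, 95% interval −0.95 to −0.55, edgeR adjusted p = 1.06e-08), below 89.4% of the tested genes. It was lower and called under each of the 15 alternatives run, with values from −0.95 to −0.68. Tested genes with a library pattern much like it included Snx25 and Rassf3, at root mean square differences of 0.0362 and 0.0459 in centred log2 CPM over the 6 libraries. Their log2 fold changes were −0.71 and −0.78.

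**Figure D2:**
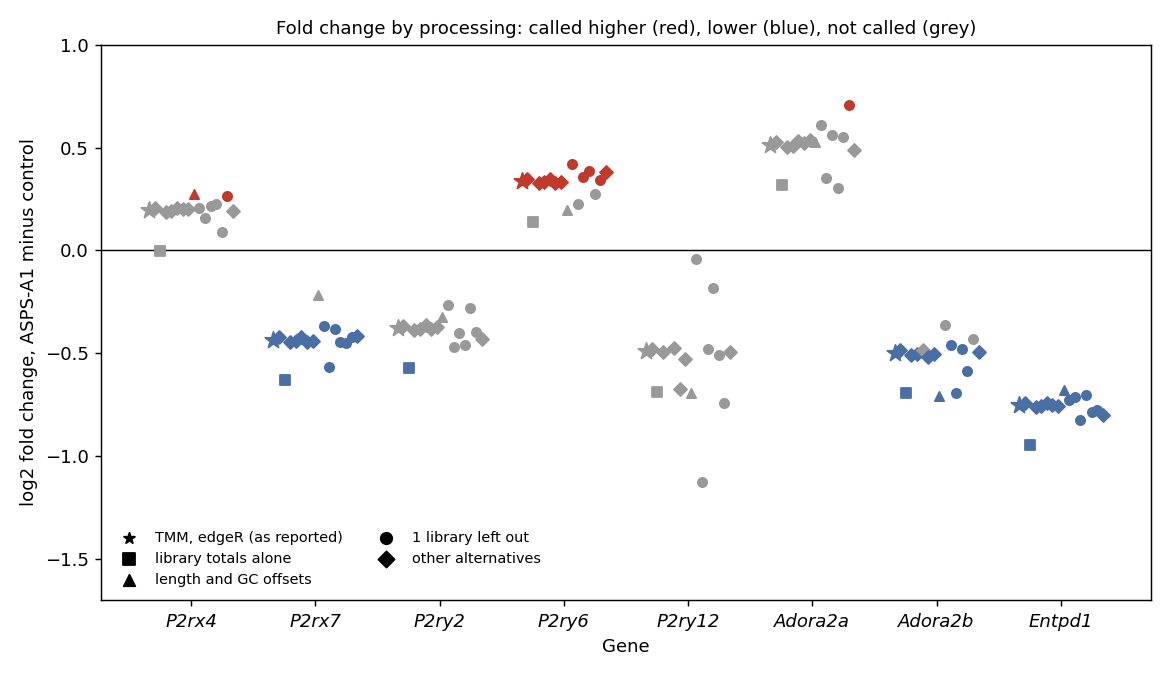
Log2 fold change of each tested member as reported (star) and under each alternative processing (other symbols), coloured by whether it was called at an adjusted p of 0.05. Entpd1 is called lower under all of them, and P2ry6, P2rx7 and Adora2b each lose their call under at least 1.

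The upstream sequences of Entpd1 and Adora2b, both of which fell, are given for comparison with those of the P2X pair. They are again the 250 bases before RefSeq starts on the plus strand, at chr19:40612116-40612365 and chr19:40659520-40659769 for the 2 Entpd1 starts and at chr11:62248734-62248983 for Adora2b. Capitals mark the cAMP response core site, read as CGTCA on the opposite strand.
Entpd1 first start: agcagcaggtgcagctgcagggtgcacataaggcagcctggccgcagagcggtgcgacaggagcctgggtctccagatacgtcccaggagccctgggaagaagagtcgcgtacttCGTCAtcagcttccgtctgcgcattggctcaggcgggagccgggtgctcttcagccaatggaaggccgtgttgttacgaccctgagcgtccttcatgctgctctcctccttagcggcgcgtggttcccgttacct
Entpd1 second start: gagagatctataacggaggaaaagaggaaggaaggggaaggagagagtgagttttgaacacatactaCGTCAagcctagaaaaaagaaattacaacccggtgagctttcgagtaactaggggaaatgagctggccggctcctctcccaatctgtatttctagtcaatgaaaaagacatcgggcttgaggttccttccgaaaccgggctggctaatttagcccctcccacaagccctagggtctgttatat
Adora2b: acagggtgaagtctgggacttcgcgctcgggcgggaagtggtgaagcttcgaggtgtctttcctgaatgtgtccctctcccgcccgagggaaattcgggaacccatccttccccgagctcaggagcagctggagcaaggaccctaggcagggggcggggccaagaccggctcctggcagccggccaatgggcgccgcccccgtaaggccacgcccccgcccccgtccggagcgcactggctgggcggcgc
Each Entpd1 sequence holds 1 core site, beginning 135 and 183 bases before its start. The Adora2b sequence holds no match to any of the motifs searched on both strands, which were TGANTCA, the full cAMP response element TGACGTCA, its core site TGACG, the hypoxia response element ACGTG and the NF-κB consensus. Of the 13 RefSeq promoters found for 7 of the 9 members, 3 held the AP-1 motif, 3 the core site, 2 the hypoxia element, 1 the NF-κB consensus and 0 the full cAMP element. The AP-1 promoters were 1 of P2rx7 and 2 of P2ry14, a gene without counts that supplied 4 of the 13. The core-site promoters were that of P2rx4 and the 2 of Entpd1. These counts thus include several starts of the same gene. Among all promoters the hypoxia element was in 16.6%, the NF-κB consensus in 7.25% and the full cAMP element in 1.55%. P2ry6 and Adora2a had no entry. The core site is contained in the full cAMP element.

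Levels of different genes were compared per kilobase of the longest annotated transcript. In control libraries the order was P2ry6 (5.84 ± 0.477 CPM per kb), Entpd1 (5.10 ± 0.324), P2rx4 (4.61 ± 0.604), P2rx7 (3.39 ± 0.0732), Adora2b (3.19 ± 0.356), P2ry2 (1.52 ± 0.187), Adora2a (0.903 ± 0.260) and P2ry12 (0.357 ± 0.136), each with n = 3. The library ranges of P2ry6 and Entpd1, of Entpd1 and P2rx4, and of P2rx7 and Adora2b overlapped. With ASPS-A1 the order on the same scale was P2ry6 (7.38 ± 0.969), P2rx4 (5.28 ± 0.213), Entpd1 (3.03 ± 0.261), P2rx7 (2.52 ± 0.367), Adora2b (2.27 ± 0.518), Adora2a (1.30 ± 0.239), P2ry2 (1.18 ± 0.163) and P2ry12 (0.257 ± 0.180). Here Entpd1 and P2rx7, Entpd1 and Adora2b, P2rx7 and Adora2b, and Adora2a and P2ry2 overlapped. Entpd1 and P2rx4, whose control ranges overlapped, were thus apart with ASPS-A1, and P2ry2 and Adora2a, apart in control, overlapped.

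**Figure D3:**
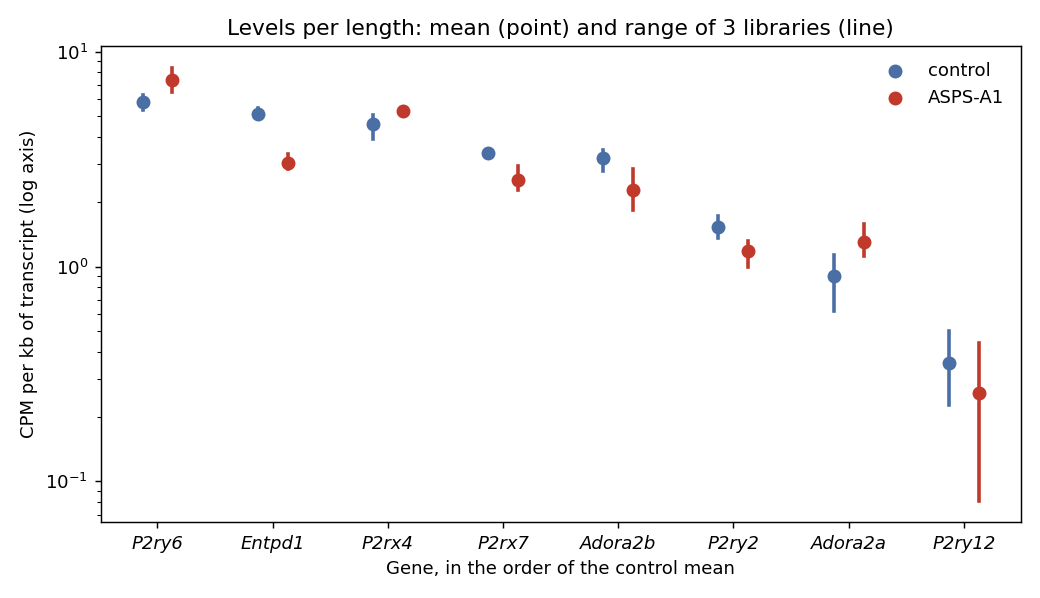
Level of each member with counts, in CPM per kb of its longest transcript on a log axis, as the mean (point) and range (line) of 3 control (blue) and 3 ASPS-A1 (red) libraries. Entpd1 is at 5.10 in control, next to P2ry6 and P2rx4, and at 3.03 with ASPS-A1, below both.

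Beyond the members, 55 other genes of nucleotide release, breakdown, adenosine handling and receptor coupling were examined. Of these, 35 were tested, of which 7 were higher and 13 lower, against 32.4% higher and 33.0% lower over all genes, and 15 were not past the threshold. Their median log2 fold change was 0.0050. With scaling by library totals alone 5 were higher and 18 lower.

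**Figure D4:**
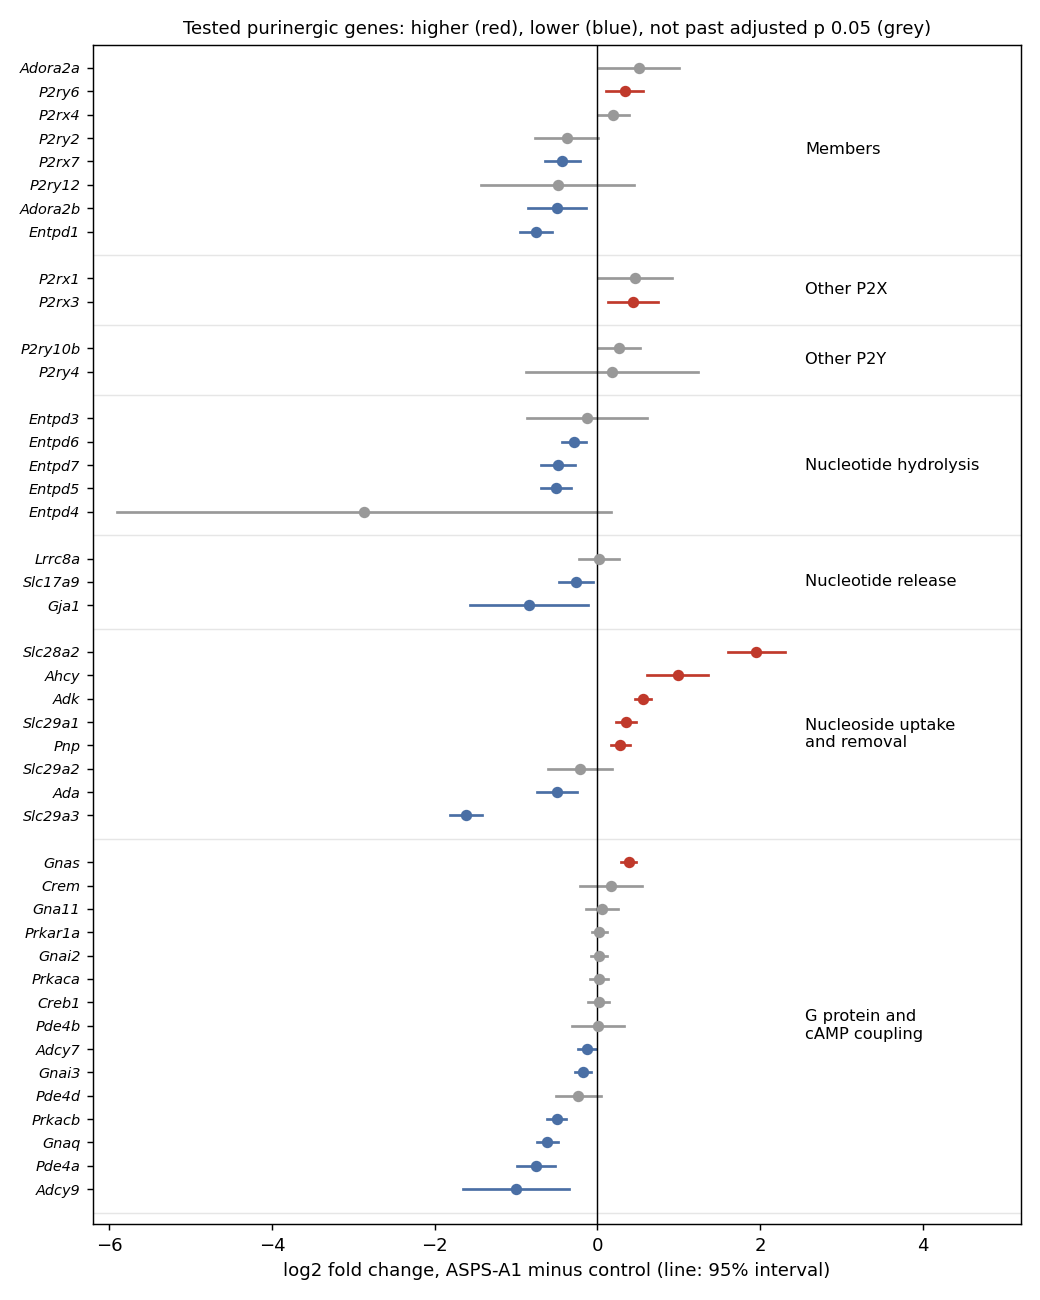
Log2 fold change (ASPS-A1 minus control, TMM scaling) of the 8 tested members and 35 other tested purinergic genes by role. Lines give the 95% interval (± 1.96 SE), and colours mark genes higher (red), lower (blue) or not past an adjusted p of 0.05 (grey). Slc28a2 at 1.95 and Slc29a3 at −1.61 are the called genes farthest from 0, and Entpd4 has the widest interval.

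Among the other P2X receptors, P2rx3 was the 1 called gene of 2 tested and was higher (7.48 ± 0.646 against 5.53 ± 0.462 CPM, adjusted p = 0.0125). Over all tested genes 65.3% were called in either direction and 32.4% higher. Ssrp1 shares 1.83% of the P2rx3 exon sequence and was itself higher, at 351 against 229 CPM, and how reads over shared sequence were counted is not given in the sources used here. The P2rx3 call was lost with library totals alone (log2 fold change 0.25, adjusted p = 0.162), with the length and GC offsets (0.22, adjusted p = 0.213) and without control replicate 3 (0.38, adjusted p = 0.0531). Of the other genes with a P2ry symbol, 2 of 5 were tested and none was called by edgeR at an adjusted p under 0.05, beside the same 65.3%. They were listed by symbol, and whether each product responds to nucleotides was not examined. The most abundant, P2ry10b, had 11.5 ± 2.09 CPM against 9.55 ± 0.826 (log2 fold change 0.26, unadjusted p = 0.0489, adjusted p = 0.0721). Its log2 fold change was 0.40 (adjusted p = 0.00929) without ASPS-A1 replicate 2 and 0.17 (adjusted p = 0.312) without ASPS-A1 replicate 3. It was 0.071 (adjusted p = 0.654) with library totals alone and 0.14 (adjusted p = 0.322) with the length and GC offsets. The adenosine receptors Adora1 and Adora3 were too scarce to test, with Adora3 at 8, 0 and 4 counts with ASPS-A1 and 0, 4 and 7 in control, and with 20.9% of its exon sequence shared with Tmigd3.

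Of 12 other genes for enzymes that hydrolyse nucleotides, 5 were tested, 3 fell and 0 rose, beside 33.0% lower and 32.4% higher over all tested genes. Entpd5, an enzyme of the endoplasmic reticulum, fell to 18.5 ± 1.26 from 26.3 ± 2.37 CPM (log2 fold change −0.51 ± 0.09 SE, edgeR adjusted p = 4.50e-06). The intracellular Entpd7 fell by 0.49 and Entpd6 by 0.29 on the log2 scale. With the length and GC offsets Entpd5 was at −0.33 and Entpd7 at −0.25, and with library totals alone Entpd6 was at −0.48, all still called. Entpd7 shares 4.95% of its exon sequence with Cox15, and Entpd6 shares 4.02% with Gm26681. Nt5e, Alpl and, below, Panx1 were singled out after their counts were seen. Nt5e, which encodes the ectoenzyme CD73 that turns AMP into adenosine, had 0 counts in 5 libraries and 1 count in control replicate 3. Alpl, another AMP-hydrolysing ectoenzyme, had 0 in all 6.

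Routes of nucleotide release were represented by 3 tested genes of 6, of which 2 fell and 0 rose, beside 33.0% lower and 65.3% called in either direction over all tested genes. Slc17a9, the vesicular nucleotide transporter, had 14.4 ± 1.85 against 17.2 ± 0.827 CPM (log2 fold change −0.26, adjusted p = 0.0286). The connexin gene Gja1 had 16, 14 and 16 counts with ASPS-A1 against 34, 37 and 41 in control (−0.84, adjusted p = 0.0431). Both calls were fragile. The Gja1 adjusted p was 0.0515 to 0.102 in 11 of the 15 alternatives, with log2 fold changes of −0.89 to −0.81, and its groups did not overlap. For Slc17a9, leaving out ASPS-A1 replicate 3 reduced the log2 fold change to −0.16 (adjusted p = 0.217). Leaving out control replicate 1 gave −0.23 (adjusted p = 0.0951) and leaving out control replicate 3 gave −0.27 (adjusted p = 0.0551). Thinning to the smallest total gave −0.22 (adjusted p = 0.0679), DESeq2 −0.25 (adjusted p = 0.0883) and library totals alone −0.46 (adjusted p = 0.000317). Panx1, the pannexin channel gene, had between 1 and 7 counts.

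Genes for nucleoside uptake and adenosine handling held the largest called differences, in both directions, among these 55 genes. Of 9, 8 were tested, 5 rose and 2 fell, beside 32.4% higher and 33.0% lower over all tested genes. Slc28a2, a sodium-driven nucleoside importer, rose 3.86-fold to 8.82 ± 0.214 from 2.27 ± 0.255 CPM (log2 fold change 1.95 ± 0.18 SE, edgeR adjusted p = 2.89e-13). Slc29a3, the lysosomal nucleoside exporter, fell 3.06-fold to 9.59 ± 0.655 from 29.4 ± 2.72 CPM (log2 fold change −1.61 ± 0.10 SE, edgeR adjusted p = 1.13e-18). Groups were apart for both. Adenosine kinase, Adk, which returns adenosine to AMP, rose to 159 ± 7.38 from 108 ± 2.39 CPM, while adenosine deaminase, Ada, which converts it to inosine, fell to 8.59 ± 0.890 from 12.1 ± 0.638 CPM. The log2 fold change of Adk was 0.56, and 0.36 with library totals alone, called under both. There were 15.7, 21.0 and 19.2 Adk counts for each Ada count with ASPS-A1 and 9.62, 8.65 and 8.47 in control (exact permutation p = 0.1). Every ASPS-A1 library exceeded every control library in this ratio, which had to occur because Adk and Ada were each apart in CPM, in opposite directions. Ahcy, which splits S-adenosylhomocysteine into adenosine and homocysteine, was higher at 7.07 ± 0.752 against 3.56 ± 1.26 CPM. Its longest transcript shares 74.1% of its 50-base stretches with the gene copy Gm4737, so how reads were divided is uncertain, and a separate row named Ahcyl held 276 ± 5.06 against 195 ± 14.97 CPM.

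**Figure D5:**
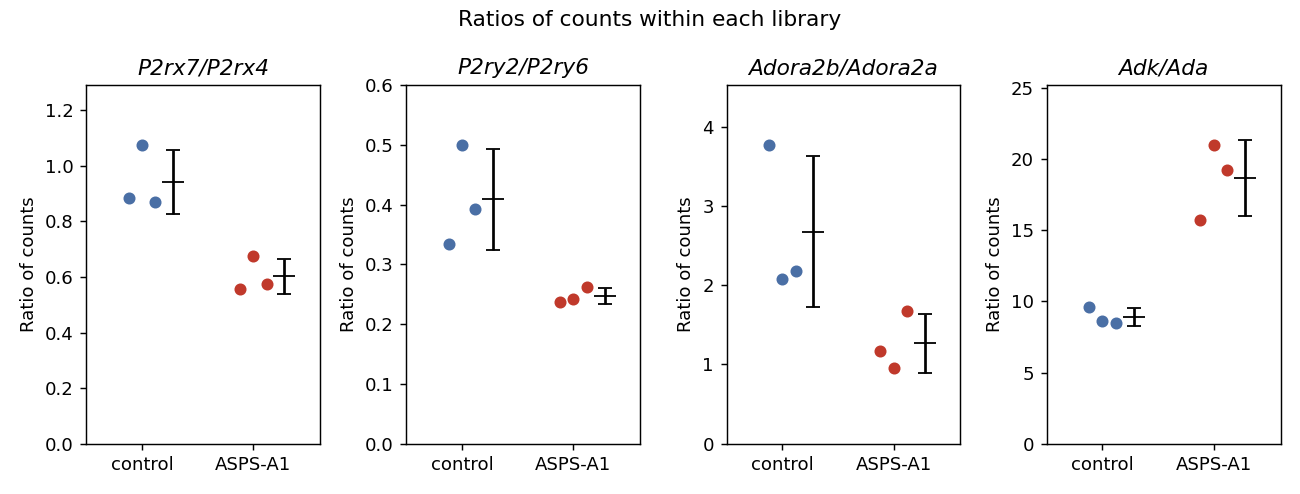
Ratio of counts of 2 genes within each library, from 0, for 3 control (blue) and 3 ASPS-A1 (red) libraries, with mean and SD in black. The first 3 ratios are lower and Adk to Ada is higher in every ASPS-A1 library than in any control. Except for Adora2b to Adora2a, this follows from the CPM of the 2 genes being apart in opposite directions. Ratios do not overlap between the groups for 64.3% of all pairs of tested genes.

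Of 16 receptor coupling genes, 15 were tested, with 1 higher, 6 lower and 8 left without a call. The share called was no larger than the 65.3% over all tested genes, of which 33.0% were lower. Gnas, the stimulatory subunit used by both adenosine receptor members, rose to 485 ± 8.24 from 372 ± 2.11 CPM, with 22.0% of its exon sequence shared with Nespas and Gm20721. Its log2 fold change was 0.38, and 0.19 with library totals alone, called under both. Gnaq, the subunit through which P2ry2 and P2ry6 activate phospholipase C, fell 1.53-fold (log2 fold change −0.62 ± 0.07 SE, edgeR adjusted p = 5.27e-11). The cAMP phosphodiesterase Pde4a fell by 0.76 and the adenylyl cyclase Adcy9 by 1.00 on the log2 scale. With the length and GC offsets Gnaq was at −0.40 and Pde4a at −0.50, both still called. Adcy9 had 13, 22 and 28 counts against 53, 65 and 54, and its call was lost without ASPS-A1 replicate 1 (−0.70, adjusted p = 0.0727) and with the length and GC offsets (−0.72, adjusted p = 0.0534).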

How the data were processed

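Per the file headers and labels, the authors deposited raw counts per gene symbol, 1 column per library, and all 6 columns were used. The submitters' processing notes name HISAT2 2.1.0, HTSeq 0.9.1, fastp 0.22.0 and DESeq 1.38.3, and neither they nor the labels give the build, annotation or strand setting.

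Libraries were grouped by treatment label. Genes were filtered with filterByExpr (minimum count 10, minimum total 15), scaled with TMM and tested with glmQLFTest of edgeR 4.0.16 (robust) in R 4.3.3, two-sided. P-values were adjusted by Benjamini-Hochberg across every tested gene, and 0.05 was the threshold. Standard errors are |log2 fold change| over the root of the F statistic. The 95% intervals are the log2 fold change ± 1.96 SE, a normal multiplier, and are narrower than intervals matched to the quasi-likelihood test. An interval that excludes no change can therefore go with an unadjusted p above 0.05, as for P2rx4. The common coefficient of variation between libraries in the edgeR fit was 5.66%, which may be technical, and the fits were tested on simulated data. Alternatives included DESeq2 1.42.0 and limma-voom (limma 3.58.1). Length and GC offsets remove a lowess trend (span 0.3) per library, using GENCODE M21 transcripts found for 97.4% of tested genes. Named genes were all members, up to 3 called genes in each direction per role, or the most abundant where none was called, and the 3 nearest patterns, and some of the genes so chosen are not reported here. Members and lists were chosen with earlier results of these data known.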

Additional observations from a re-analysis of the deposited data

How the results depend on the processing

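The count of 1 member higher became 0 with scaling by library totals alone, and it ran from 0 to 3 when 1 library was left out. Leaving out ASPS-A1 replicate 2 or control replicate 2 gave 0, and leaving out control replicate 3 gave 3. The count of 3 members lower stayed between 2 and 4, and the counts of 7 and 13 other purinergic genes stayed between 5 and 8 and between 10 and 18. P2rx4 changed sign with library totals alone (−0.0015). Of 359 fold changes recomputed for 24 named genes, 324 kept both direction and side of the threshold, 29 lost a call, 5 gained one and 1 changed sign. Only the library number is shared between groups: deviations of same-numbered libraries correlated at −0.0323, 0.00723 and −0.00343 across genes, and in 0 of 3 cases was the same number the best match. With the replicate block, 1 member was higher and 3 lower, 7 other genes were higher and 12 lower, and Gja1 was the named gene that lost its call (adjusted p = 0.0609). The cause of each lost call was not tested. At these depths P2ry12, with 4 to 29 counts per library, had a 95% interval from −1.43 to 0.45, and P2ry14 and 20 other genes had too few counts to be tested.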

Other observations

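Entpd4, a nucleotidase of the Golgi and lysosomes, had 0, 54 and 0 counts with ASPS-A1 and 106, 377 and 53 in control, with the largest standard error among the 35 other purinergic genes tested (log2 fold change −2.87 ± 1.55 SE, edgeR adjusted p = 0.177). Its longest annotated transcript shares 100% of its 50-base stretches with the neighbouring copy Entpd4b. The row for that copy, examined after the Entpd4 counts were seen, had 1727, 1427 and 1557 counts in the treated libraries and 2850, 2731 and 3631 in the controls. Entpd4b fell 1.44-fold (log2 fold change −0.53 ± 0.06 SE, edgeR adjusted p = 1.84e-10), with the groups apart. How reads that fit both copies were assigned is not given in the sources used here.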
